A study of Homo sapiens with 8 samples.

Results

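The genes described here are 29 genes of cholesterol supply: the enzymes that make cholesterol, the SREBP2 machinery that switches those enzymes on, and the LXR receptors and their target genes that export it. They were taken by name from a list, out of 58735 Ensembl genes in the count files. All 29 were present, and all 29 passed the filter on low counts, among 16452 genes tested. RNA was sequenced from 22Rv1, an established human castration-resistant prostate cancer cell line. The control group received the vehicle DMSO and the other group received PCC0208017, which the submitters describe as an inhibitor of the kinase MARK3, with 4 libraries per group. The labels used here state no dose, duration or engineered genotype, and MARK3 activity was not measured, so effects of MARK3 inhibition and other effects of the compound cannot be told apart. The labels do not say whether replicates were separate cultures, so p-values measure only the spread between these libraries, which may be technical.

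Cholesterol is built from acetyl-CoA through mevalonate, isoprenoids, squalene and lanosterol. When sterols in the endoplasmic reticulum are low, SCAP escorts the membrane-bound factor SREBP2 (encoded by SREBF2) to the Golgi, where proteases release its active part, which switches on the synthesis genes. When sterols are plentiful, INSIG proteins hold SCAP back, and oxysterols activate the liver X receptors (LXRs), which raise the cholesterol exporters. Prostate cancer cells use cholesterol for membranes and can use it as the precursor of androgens. Of the uptake side, the list holds MYLIP and TMEM97. MYLIP is an LXR-induced ubiquitin ligase that removes lipoprotein receptors from the cell surface. TMEM97 is a membrane protein linked to lipoprotein uptake.

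Control libraries held 12672817 to 13386143 counts, and treated libraries 13517289 to 21271127. Controls 1 and 2 resembled each other more than they did controls 3 and 4, a split that the labels do not name, so the order of libraries is kept in the values below. Mitochondrial transcripts made up 6.43% to 6.61% of counts in controls and 6.66% to 7.05% in treated libraries. The epithelial markers EPCAM, KRT8, KRT18 and CDH1 summed to 1402 to 1482 CPM (reads per 1e6 of a library's total after TMM factors, which correct for RNA composition) in controls and 1278 to 1439 in treated libraries. The 3 basal and 3 endothelial markers summed to at most 0.396 CPM in any library, the 4 leukocyte markers to at most 1.80 and the 4 fibroblast markers to between 12.2 and 21.8, mostly from COL1A1 (11.35 and 18.0 CPM on average in controls and treated cells) and LUM (3.003 and 0.509), while CD3E, PECAM1 and CDH5 averaged 0 in both groups. Among 3 hepatocyte markers, ALB was at 715.6 CPM in controls and 274.2 in treated cells, while TTR and APOA1 averaged under 1 CPM. The part of these genes in the results was not tested.

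Promoter sequences are shown first, because SREBP2 acts on the synthesis genes through a sterol response element beside binding sites for the general factors NF-Y and SP1. RefSeq windows of 300 bases on GRCh38.p14, from 250 before to 50 after each annotated start, were found for 25 of the 29 genes, in 34 windows. FDFT1, SQLE, ABCG1 and ACAT2 had none. Windows were searched on both strands for the sterol response element TCACNCCAC, the NF-Y box CCAAT (which reads as ATTGG on the other strand), the SP1 box GGGCGG, the E-box CACGTG and the LXR element DR4. Matches of CCAAT on opposite strands can overlap, as in NSDHL. The exact sterol response element was found in 1 of the 25 genes, SREBF2 itself, and in 1.39% of 27305 symbols with a window. With 1 mismatch allowed it was found in 11 of 25, against 28.2% of all symbols. A CCAAT box was present in 19 of the 25 genes, against 39.7% of all symbols. These were 13 of 15 synthesis enzymes with a window, 2 of 4 LXR and efflux genes, and others. A GGGCGG box was present in 24 of the 25 genes, against 48.3%. The E-box was found in 5 of 25 (8.77% of all symbols) and DR4 in 0 of 25 (0.32%), which says only that these letters are not in these windows.

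The stretches below run 5′ to 3′ on the gene's strand and carry the sterol response element (exact, or with 1 mismatch) and CCAAT boxes in capitals. SREBF2 is shown for its exact element 133 bases before the start (chr22:41832957-41833018, plus strand), and TMEM97 for the largest fall with 3 CCAAT boxes and no element (chr17:28318987-28319134, plus strand). MVK is shown as a gene that was not called (chr12:109573569-109573767, plus strand), and MSMO1 as a gene that was higher (chr4:165327469-165327654, plus strand). FDPS is shown as a mevalonate pathway gene that was lower (chr1:155308675-155308878, plus strand).
SREBF2: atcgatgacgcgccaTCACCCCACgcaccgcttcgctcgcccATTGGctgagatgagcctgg
TMEM97: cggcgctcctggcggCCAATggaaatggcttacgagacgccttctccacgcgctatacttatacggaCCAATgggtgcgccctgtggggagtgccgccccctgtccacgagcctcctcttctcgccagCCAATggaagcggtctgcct
MVK: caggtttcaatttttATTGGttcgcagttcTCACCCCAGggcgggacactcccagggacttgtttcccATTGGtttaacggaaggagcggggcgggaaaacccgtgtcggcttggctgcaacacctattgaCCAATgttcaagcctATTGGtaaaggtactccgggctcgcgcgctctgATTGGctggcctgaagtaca
MSMO1: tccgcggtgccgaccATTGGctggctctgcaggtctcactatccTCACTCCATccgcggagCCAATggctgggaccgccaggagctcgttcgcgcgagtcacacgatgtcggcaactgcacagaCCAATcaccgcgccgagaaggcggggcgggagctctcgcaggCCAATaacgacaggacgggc
FDPS: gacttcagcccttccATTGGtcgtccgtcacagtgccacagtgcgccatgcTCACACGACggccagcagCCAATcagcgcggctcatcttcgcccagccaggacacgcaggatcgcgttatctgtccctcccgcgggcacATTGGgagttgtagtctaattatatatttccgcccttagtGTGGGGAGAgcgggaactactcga

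CCAAT boxes were found in genes of each outcome. MVK and NSDHL each hold 5 CCAAT boxes, and MVK was not called while NSDHL was lower. MSMO1 holds 4 and was higher. PMVK holds none and was lower. A match in a window is a description of the letters and not evidence of binding.

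The comparison of inhibitor with DMSO asked how these genes differ in treated cells. Among the 29, 10 genes passed the test as higher and 13 as lower, and 6 did not pass, where passing meant an adjusted p under 0.05 (quasi-likelihood test of edgeR, Benjamini-Hochberg over all tested genes). The called share of 79.3% compares with 58% of all tested genes (29.8% higher and 28.3% lower). In 6 of the genes all treated libraries lay above all controls and in 13 they lay below, where 51% of tested genes did not overlap in either direction. The changes were small: ABCG1 alone of the 29 was called with a log2 change of at least 1 in size, which 10.3% of tested genes reached (4.24% higher and 6.09% lower). Both synthesis segments had medians below 0 and the LXR group had a median above 0. When libraries were scaled by their totals without TMM factors, the median of all tested genes moved from 0.021 to 0.126 on the log2 scale, and the split of all calls from 51.3% to 63.6% higher. Under this total-count scaling 10 of the 29 genes were higher and 11 lower, where 6274 of 16452 tested genes were higher and 3596 lower. A further alternative, called GC offsets below, removed from each library its smooth trend on transcript GC content. It gave 7 of the 29 higher and 14 lower, where 4917 of 16452 tested genes were higher and 4874 lower.

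**Figure D1:**
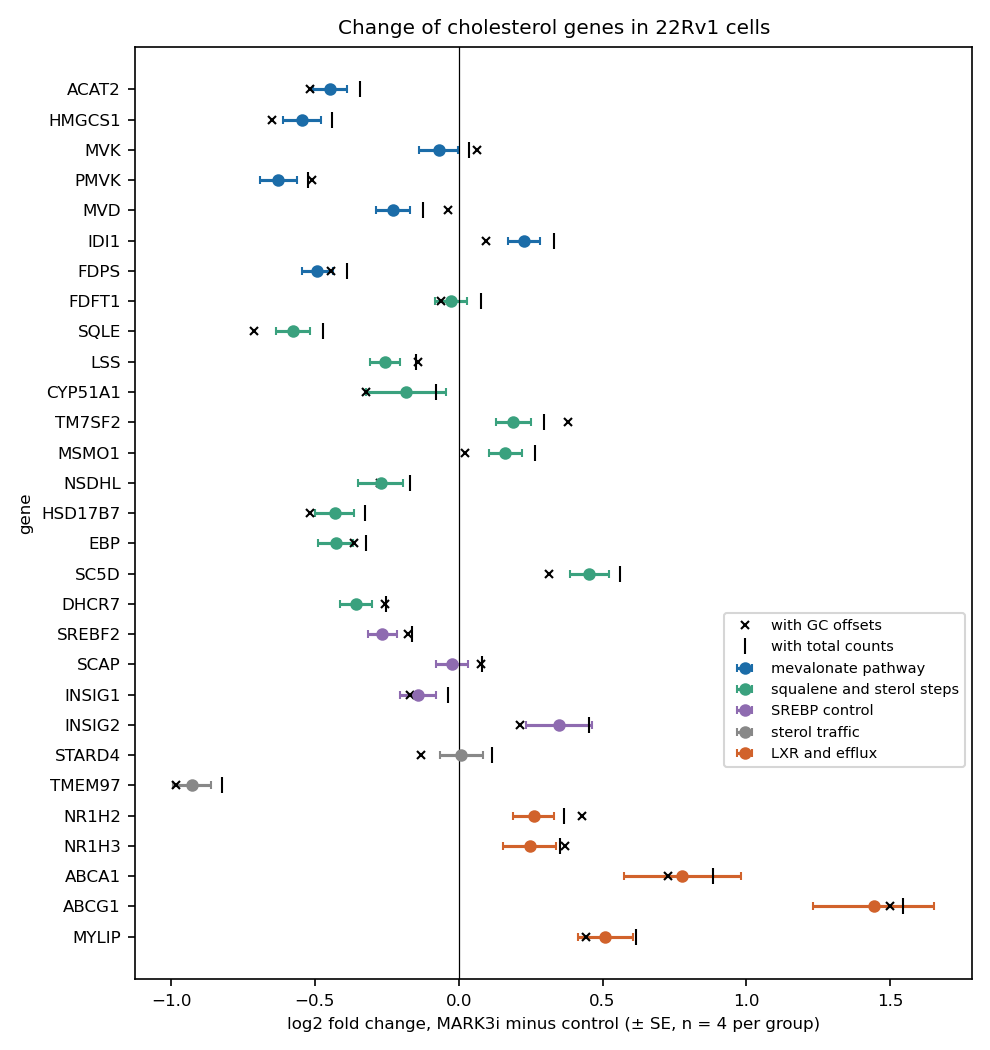
The x axis gives the log2 fold change of each of the 29 genes (inhibitor minus control, points with SE, n = 4 libraries per group), and the y axis lists the genes by role, with crosses for values after removing each library's trend on GC content and ticks for total-count scaling. All 5 LXR and efflux genes lie right of 0 under the 3 settings, and TMEM97 lies farthest to the left.

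Among the mevalonate pathway enzymes, falls passed in 5 of the 7 and a rise in 1, and the median log2 change of the 7 was -0.45, where the median of all tested genes was 0.02 and 28.3% of them were lower. PMVK, the phosphomevalonate kinase gene, had 101, 103, 103 and 108 CPM in controls 1 to 4 and 68.5, 66.5, 59.9 and 73.5 in treated libraries 1 to 4. Its groups lay far apart relative to their spread, and PMVK fell by 0.63 ± 0.065 on the log2 scale (SE, adjusted p = 1.08e-08). HMGCS1, which joins acetyl groups into HMG-CoA at the entry of the pathway, had 520, 516, 454 and 457 CPM in controls and 371, 303, 349 and 311 in treated libraries. Controls 1 and 2 stood above controls 3 and 4 for HMGCS1, and all treated libraries were below both (log2 change -0.55 ± 0.066, adjusted p = 1.61e-07). FDPS, which makes farnesyl diphosphate, the branch point to isoprenoids, went from 241 ± 7.64 to 171.5 ± 6.95 CPM (SD, n = 4; log2 change -0.49 ± 0.054, adjusted p = 2.88e-08). FDPS shares 693 exonic bases with the antisense gene RUSC1-AS1, which held 2517 counts against 23350. ACAT2, the cytosolic thiolase of the first step, was tight in controls (163 to 167 CPM) and lower in treated libraries (113 to 134), at -0.45 ± 0.060 (adjusted p = 6.32e-07). ACAT2 shares 454 exonic bases with TCP1, which lies on the opposite strand and held 38398 counts against 16217. No source used here states whether reads were assigned by strand, so reads in such shared stretches cannot be told apart.

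The remaining mevalonate pathway genes included the single rise. IDI1, the isomerase that balances the isoprenoid units, was higher: controls had 306, 301, 282 and 283 CPM and treated libraries 369, 324, 324 and 355. All treated libraries of IDI1 exceeded all controls (0.23 ± 0.057, adjusted p = 0.00154), but with GC offsets the change was 0.09 (adjusted p = 0.125). MVD, the mevalonate diphosphate decarboxylase gene, was lower at -0.23 ± 0.059 (adjusted p = 0.00175), and this call ended with GC offsets (-0.04, adjusted p = 0.557) and with total counts (-0.125, adjusted p = 0.0582). MVK, the mevalonate kinase gene, overlapped between groups, with 119 to 145 CPM in controls and 113 to 138 in treated libraries (-0.07 ± 0.068, adjusted p = 0.394), and it shares 225 exonic bases with MMAB on the opposite strand. Consecutive kinases of the pathway therefore had different values, MVK at -0.07 and PMVK at -0.63, a difference that was not itself tested.

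In the squalene and sterol segment, falls passed in 6 of 11 genes and rises in 3 (median log2 change -0.255). Among all tested genes 28.3% were lower and 29.8% higher, with a median of 0.02. SQLE, squalene epoxidase, the oxygen-requiring step after squalene, had 141, 137, 129 and 140 CPM in controls and 97.9, 85.6, 91.8 and 91.3 in treated libraries. No libraries overlapped and SQLE was 1.49-fold lower (-0.58 ± 0.060, adjusted p = 1.11e-08). FDFT1, squalene synthase, which commits farnesyl diphosphate to sterols just before SQLE, ranged from 953 to 979 CPM in controls and from 897 to 1039 in treated libraries (-0.03 ± 0.056, adjusted p = 0.696). LSS, which closes the sterol rings to form lanosterol, went from 311.8 ± 7.92 to 261.3 ± 6.76 CPM (-0.255 ± 0.052, adjusted p = 0.000173), a change of -0.15 with total counts and -0.14 with GC offsets.

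Later sterol enzymes were split between falls and rises. EBP, the sterol isomerase, went from 245.1 ± 6.29 to 182.3 ± 15.1 CPM (-0.43 ± 0.060, adjusted p = 1.21e-06). DHCR7, a terminal reductase of the pathway, went from 351.0 ± 2.94 to 273.9 ± 18.1 CPM (-0.36 ± 0.055, adjusted p = 5.32e-06). HSD17B7, a ketoreductase of sterol demethylation, went from 48.9 ± 1.73 to 36.3 ± 1.17 CPM (-0.43 ± 0.068, adjusted p = 7.35e-06). The value of HSD17B7 is uncertain to the extent that reads are shared with the copy HSD17B7P2, which held 442 counts over the controls and 378 over the treated libraries. NSDHL, the dehydrogenase of the same demethylation, was lower at -0.27 ± 0.077 (adjusted p = 0.00383), a call that ended with total counts (-0.17, adjusted p = 0.0601).

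SC5D, the sterol desaturase, rose against the direction of most enzymes. Controls of SC5D had 61.2, 65.0, 56.2 and 58.0 CPM and treated libraries 89.2, 75.3, 84.8 and 80.5. The groups did not overlap, and the log2 change was 0.45 ± 0.069 (adjusted p = 3.95e-06). TM7SF2, one of the sterol reductases, rose from 178.6 ± 13.8 to 203.7 ± 8.43 CPM with overlapping libraries (0.19 ± 0.060, adjusted p = 0.00865), and the change was 0.38 with GC offsets and 0.295 with total counts. MSMO1, the methyl sterol oxidase, was at 0.16 ± 0.057 (adjusted p = 0.0182), with overlapping libraries. The MSMO1 call ended with GC offsets (0.02, adjusted p = 0.751) and without control replicate 3 (adjusted p = 0.0862), control replicate 4 (adjusted p = 0.052) or MARK3i replicate 1 (adjusted p = 0.116). CYP51A1, lanosterol demethylase, varied most among the enzymes, with 43.8, 46.7, 34.2 and 36.7 CPM in controls and 44.4, 29.4, 39.7 and 29.4 in treated libraries (-0.18 ± 0.138, adjusted p = 0.277). With total counts its change was -0.08 (adjusted p = 0.63). CYP51A1 passed as lower with GC offsets (-0.32, adjusted p = 0.017) and without MARK3i replicate 1 (-0.32, adjusted p = 0.0184). Of its 4171 exonic bases, CYP51A1 shares 2844 with ENSG00000285772 on the same strand, a gene listed at 0 counts in total. It also shares 108 with AKAP9 on the opposite strand, which had 55960 counts over all libraries against 4317 for CYP51A1.

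**Figure D2:**
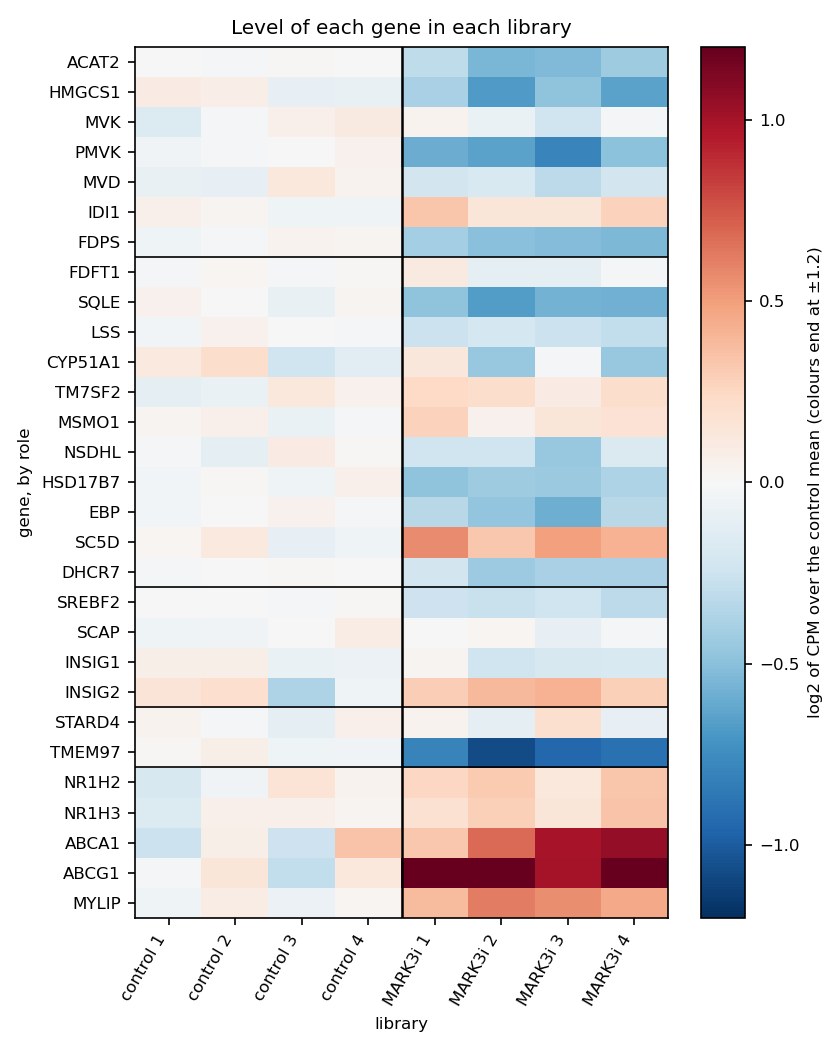
Rows are the 29 genes by role, columns are the 8 libraries, and colour gives log2 of the CPM over the control mean. Treated libraries are blue for most synthesis genes and red for ABCA1, ABCG1 and MYLIP, and controls 1 and 2 differ from controls 3 and 4 in rows such as HMGCS1 and CYP51A1.

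Summed over the 18 synthesis enzymes, controls had 4294, 4359, 4290 and 4305 CPM and treated libraries 4098, 3666, 3680 and 3822. On the TMM scale every treated sum was below every control sum, and MARK3i replicate 1 was the nearest to the controls. The TMM factors were 0.9598 to 0.9682 in controls and 1.0113 to 1.059 in treated libraries. Without these factors MARK3i replicate 1 would not lie below every control sum, so this separation depends on the scaling. The median over these enzymes of the log2 ratio to the control mean lay between -0.01 and 0.01 in controls and was -0.23, -0.33, -0.35 and -0.32 in treated libraries. In bulk RNA a smaller number of cells with the transcript and less transcript per cell cannot be told apart.

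The SREBP control genes did not share a direction, and their median changed sign with the scaling (-0.08 with TMM and 0.02 with total counts). SREBF2 (ENSG00000198911; chromosome 22, 41833105 to 41907306, plus strand, hg38) encodes SREBP2. Its controls had 611, 610, 601 and 614 CPM and its treated libraries 512, 507, 516 and 491. The groups were tight and separate, and SREBF2 was 1.203-fold lower (-0.27 ± 0.051, adjusted p = 7.8e-05), or -0.16 with total counts (adjusted p = 0.00371). It shares 731 exonic bases with the antisense gene SREBF2-AS1, which held 984 counts against 63785. SCAP, the escort, had 154 to 171 CPM in controls and 150 to 163 in treated libraries (-0.02 ± 0.056, adjusted p = 0.751).

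The INSIG genes, whose products retain SCAP, differed from each other. INSIG1, itself a target of SREBP2, had 376, 376, 339 and 342 CPM in controls and 367, 303, 313 and 316 in treated libraries, and did not pass (-0.14 ± 0.062, adjusted p = 0.0541). With total counts the change was -0.04 (adjusted p = 0.579). INSIG1 passed as lower with RLE factors, the scaling of DESeq2 (-0.15, adjusted p = 0.0432), without the filter on low counts (adjusted p = 0.0488), with the replicate number as a block (adjusted p = 0.0367), with GC offsets (-0.17, adjusted p = 0.0114), and without control replicate 3 (adjusted p = 0.0418), control replicate 4 (adjusted p = 0.0448) or MARK3i replicate 1 (-0.22, adjusted p = 0.00161). INSIG2 was at 12.3, 12.67, 8.53 and 10.7 CPM in controls and 13.6, 14.5, 14.7 and 13.5 in treated libraries. All treated libraries of INSIG2 were above all controls (0.35 ± 0.114, adjusted p = 0.0111). The INSIG2 call ended with GC offsets (0.21, adjusted p = 0.0805) and without control replicate 3 (0.24, adjusted p = 0.071). Within libraries, the ratio of INSIG1 to INSIG2 CPM was 30.6, 29.7, 39.7 and 32.0 in controls and 27.0, 20.96, 21.27 and 23.5 in treated libraries.

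Of the sterol traffic genes under SREBP2, TMEM97 had the largest fall of all 29 genes and STARD4 did not pass. TMEM97 (ENSG00000109084; chromosome 17, 28319200 to 28328685, plus strand) encodes the sigma-2 receptor, a membrane protein linked to lipoprotein uptake and lysosomal cholesterol. It had 123, 128, 118 and 118 CPM in controls and 69.8, 57.9, 63.3 and 65.6 in treated libraries. Every treated library was well below every control, a 1.90-fold lower level (-0.93 ± 0.065, adjusted p = 7.43e-12), and 87.8% of tested genes changed less in size. TMEM97 shares 361 exonic bases with IFT20 on the opposite strand, which held 2010 counts against 10280. STARD4, a cytosolic sterol carrier, had 48.2 to 54.2 CPM in controls and 47.9 to 59.3 in treated libraries (0.01 ± 0.075, adjusted p = 0.931).

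All 5 LXR and efflux genes were higher in treated cells, where 29.8% of tested genes were higher, with a median log2 change of 0.51. ABCG1 (ENSG00000160179; chromosome 21, 42199689 to 42297244, plus strand), an exporter of cholesterol to lipoprotein particles, had 1.49, 1.66, 1.23 and 1.64 CPM in controls and 4.11, 4.41, 3.01 and 4.84 in treated libraries. Behind these levels stand 15 to 21 counts in each control and 43 to 98 in each treated library. The groups did not overlap, and ABCG1 was 2.72-fold higher (1.44 ± 0.210, adjusted p = 2.25e-06), a change larger in size than that of 95.6% of tested genes. ABCA1 (ENSG00000165029; chromosome 9, 104781006 to 104928155, minus strand), which passes cholesterol to lipid-poor apolipoproteins, had 1.96, 2.46, 1.97 and 2.97 CPM in controls and 2.93, 3.73, 4.62 and 4.84 in treated libraries. In CPM with TMM factors the lowest treated library of ABCA1 lay just below its highest control. Raw counts, not scaled for library size, were 24 to 38 in controls and 42 to 83 in treated libraries. The log2 change of ABCA1 was 0.78 ± 0.204 (adjusted p = 0.00216). MYLIP was tight, with 12.1, 13.4, 11.97 and 12.8 CPM in controls and 16.3, 19.3, 18.6 and 17.2 in treated libraries, 1.42-fold higher without overlap (0.51 ± 0.096, adjusted p = 6.79e-05).

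The receptor genes were both higher. NR1H2, which encodes LXR-beta, the broadly expressed form, had 82.5, 91.7, 105.5 and 97.4 CPM in controls and 112, 117, 103 and 118 in treated libraries, so that control replicate 3 reached into the treated range (0.26 ± 0.070, adjusted p = 0.00263), and with GC offsets the change was 0.43. NR1H2 shares 1182 exonic bases with NAPSA on the opposite strand, which held 415 counts against 12152. NR1H3, which encodes LXR-alpha, had 14.57, 17.03, 17.06 and 16.77 CPM in controls and 18.6, 20, 18.1 and 20.7 in treated libraries (0.25 ± 0.091, adjusted p = 0.0229). The NR1H3 call ended with DESeq2 (0.23, adjusted p = 0.0704), without a filter (adjusted p = 0.0621), and without control replicate 1 (0.19, adjusted p = 0.0989), MARK3i replicate 2 (adjusted p = 0.0528) or MARK3i replicate 4 (adjusted p = 0.0732). NR1H3 shares 189 exonic bases with ACP2 on the opposite strand, which was also higher.

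**Figure D3:**
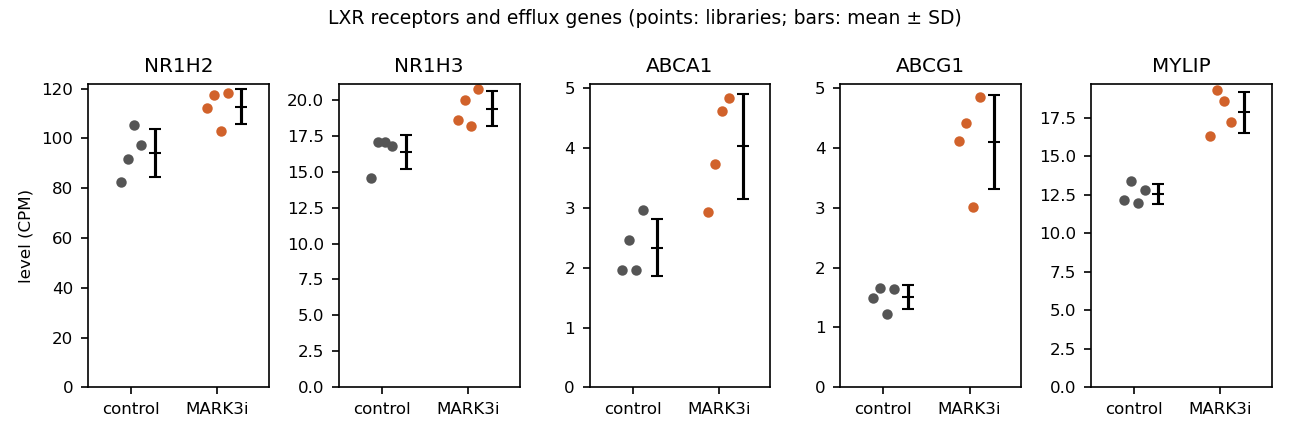
Each panel gives the level of 1 gene in CPM on the y axis, from 0, with replicates 1 to 4 from left to right in control and MARK3i libraries, and bars for mean ± SD. ABCG1, MYLIP and NR1H3 do not overlap between groups, while NR1H2 and ABCA1 do.

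Per length, the synthesis enzymes were far more abundant than the exporters. Levels per length are CPM divided by the annotated exonic length in kilobases (FPKM), so they depend on how much of the annotation is transcribed. FDFT1 was the highest in controls at 190 ± 2.50 FPKM (SD, n = 4), followed by EBP at 138.7 ± 3.56, PMVK at 103 ± 3.0 and INSIG1 at 98.2 ± 5.67. PMVK and INSIG1 lay within their spread of each other, as did SREBF2 (75.6 ± 0.725) and HMGCS1 (73.5 ± 5.44). TM7SF2 (52.4 ± 4.04), MVD (51.8 ± 3.87) and DHCR7 (51.0 ± 0.428) could not be ranked either. At the low end, ABCA1 at 0.206 ± 0.0422 and ABCG1 at 0.246 ± 0.0325 FPKM also lay within their spread in controls. In treated cells ABCG1 was at 0.669 ± 0.127 and ABCA1 at 0.355 ± 0.0774 FPKM, so both remained below MYLIP (5.81 ± 0.434) and NR1H3 (4.27 ± 0.266).

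**Figure D4:**
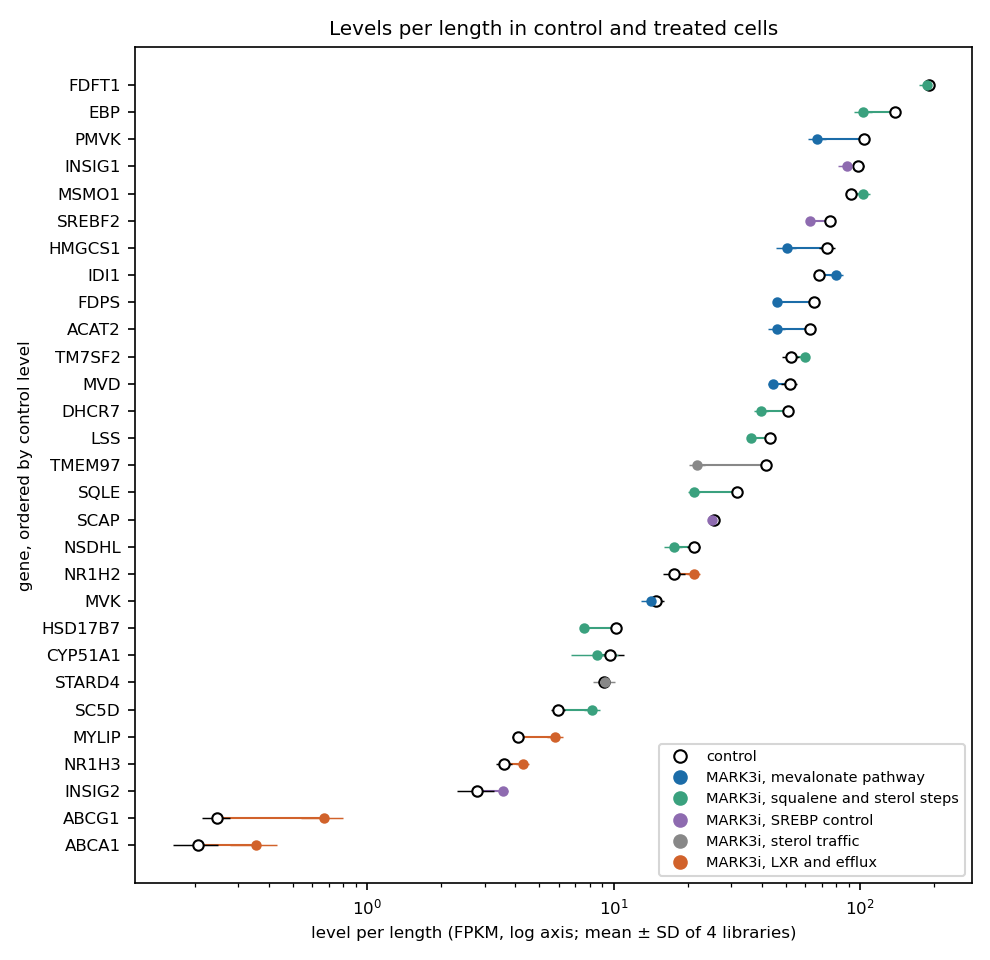
The x axis gives levels per length in FPKM on a log axis (mean ± SD of 4 libraries), open points for controls and filled points for treated cells, with the 29 genes ordered by control level on the y axis. The efflux genes ABCA1 and ABCG1 stand at the bottom near 0.2 FPKM in controls, and FDFT1 at the top.

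A further list of cholesterol genes held 54, of which 50 were tested. Rises passed in 16 and falls in 14, a called share of 60% against 58% of all tested genes. Under total counts 23 were higher and 11 lower, where 6274 of 16452 tested genes were higher and 3596 lower. Among 8 genes of SREBP processing, 5 were higher and 1 was lower (median 0.33), where 29.8% of all tested genes were higher and 28.3% lower. MBTPS1, the site-1 protease that makes the first cut in SREBPs, rose from 116.7 ± 4.93 to 155.4 ± 3.21 CPM (0.41 ± 0.056, adjusted p = 7.68e-07). PAQR3, which tethers SCAP to the Golgi, rose (0.84 ± 0.106, adjusted p = 2.39e-07), and so did the ubiquitin ligase gene RNF139 (0.55 ± 0.084). SREBF1, the sister factor for fatty acid synthesis, fell (-0.35 ± 0.069, adjusted p = 0.00013), with -0.17 under GC offsets.

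Genes of sterol traffic and uptake were higher in 7 and lower in 3 of 15 tested cases (median 0.20), where 29.8% of all tested genes were higher and 28.3% lower. LRP8, a lipoprotein receptor gene, fell 3.49-fold from 27.0 ± 1.81 to 7.78 ± 0.751 CPM (-1.80 ± 0.098, adjusted p = 6.06e-14). SCARB1, the scavenger receptor that takes up cholesterol from high-density lipoprotein, fell from 271.9 ± 6.55 to 145.1 ± 7.03 CPM (-0.91 ± 0.055, adjusted p = 5.17e-13). VPS13A was lower by a small amount with overlapping libraries (-0.20 ± 0.076, adjusted p = 0.0298), a call that ended with total counts (adjusted p = 0.351) and without control replicate 1 or 2 or MARK3i replicate 2 or 4 (adjusted p up to 0.133), while GC offsets gave -0.33 and leaving out MARK3i replicate 3 gave -0.30. NPC2, the lysosomal sterol carrier, rose (0.68 ± 0.063, adjusted p = 1.21e-09), as did GRAMD1C, of a family that moves sterol from the plasma membrane (0.82 ± 0.135), and LIPA, the lysosomal acid lipase (0.35 ± 0.075, or 0.23 with GC offsets).

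Beyond the 5 named LXR and efflux genes, 10 other genes tied to LXR were tested, of which 2 were higher and 5 were lower (median -0.08), a called share of 70% against 58% of all tested genes. RXRB, a partner of LXR, rose from 73.3 ± 4.77 to 90.97 ± 3.33 CPM (0.31 ± 0.063, adjusted p = 0.000166). The LXR targets PLTP (-1.42 ± 0.128, adjusted p = 8.05e-10), SMPDL3A (-0.73 ± 0.060) and SCD (-0.86 ± 0.068, also an SREBP target) fell. Of 12 genes of the isoprenoid branch, a rise passed in 1 and falls in 3 (median 0.04). With TMM factors their called share of 33.3% was below the 58% of all tested genes. Under total counts rises passed in 5 of the 12 and falls in 3. In that setting 6274 of 16452 tested genes were higher and 3596 lower, so the low share depended on the scaling. PDSS1, which makes the tail of coenzyme Q, fell from 24.2 ± 2.38 to 9.74 ± 0.962 CPM (-1.31 ± 0.101, adjusted p = 4.61e-11), as did the coenzyme Q gene COQ2 (-0.37 ± 0.094), and the prenyltransferase subunit gene PGGT1B rose (0.24 ± 0.071), a call that ended with GC offsets (0.10, adjusted p = 0.131). Of 5 tested oxysterol genes, CYP46A1, the cholesterol hydroxylase best known from neurons, was higher (1.80 ± 0.328, adjusted p = 4.6e-05), at 0.573 ± 0.342 CPM in controls and 2.02 ± 0.354 in treated cells. HSD3B7 (-0.67 ± 0.105) and the oxysterol hydroxylase gene CYP39A1 (-0.36 ± 0.114, adjusted p = 0.00829) were lower, the latter not with total counts (adjusted p = 0.0567). The called share of the oxysterol genes was 60%, against 58% of all tested genes.

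At 14 places a gene on the opposite strand starts within 1000 bases of one of the 29 genes, and 9 of these neighbours were tested, 5 of them higher and 2 lower, against 29.8% and 28.3% of all tested genes. MMAB, a cobalamin enzyme gene that starts 325 bases from MVK in GENCODE, fell from 192.2 ± 12.4 to 158.8 ± 6.6 CPM (-0.28 ± 0.059, adjusted p = 0.000268), while MVK did not pass. NADSYN1, beside DHCR7, rose (0.36 ± 0.069, adjusted p = 9.44e-05), and CETN2, beside NSDHL, was higher with overlapping libraries (0.24 ± 0.084, adjusted p = 0.0162), so in both pairs the neighbours had opposite directions. MCM3AP-AS1 fell beside LSS (-0.84 ± 0.133), WDR37 rose beside IDI1 (0.40 ± 0.073) and ACP2 rose beside NR1H3 (0.45 ± 0.085), pairs with shared directions. ACP2 and NR1H3 share 189 exonic bases, and the rise of IDI1 did not pass with GC offsets (0.09, adjusted p = 0.125). INSIG1-DT rose (0.53 ± 0.158, adjusted p = 0.0056) beside INSIG1. CYP51A1-AS1 (adjusted p = 0.282) and SNAI3-AS1, beside MVD (adjusted p = 0.262), did not pass.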

How the data were processed

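Total RNA of 22Rv1 cells was sequenced in 4 control and 4 treated samples. Each deposited file lists raw counts for Ensembl genes, which the authors obtained with featureCounts on hg38, per the design text and the submitters' processing notes. No source used here names the aligner, annotation, strand setting or versions. Symbols, coordinates, exonic lengths and transcript GC content came from GENCODE release 44 on hg38. Groups and replicate numbers came from the sample titles.

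The model was fitted in R 4.3.3 with edgeR 4.0.16: filterByExpr, TMM factors (0.96 to 1.06), robust glmQLFit and glmQLFTest on the group alone over 16452 genes. The standard error is the absolute log2 change divided by the square root of the F statistic, with a median of 0.096. Chi-square distances showed every pair of libraries to differ by more than sampling noise (at least 1.66 per degree of freedom). The procedure was tested on simulated data. The alternatives were RLE and total-count scaling, 2 other filters, DESeq2 1.42.0, a replicate block, GC offsets (a lowess trend of each library on GC content, removed) with and without the block, an adjusted p under 0.01, and each library left out. The named genes are all 29 genes, up to 3 called genes per direction with the smallest p in each of 5 other lists, and every tested neighbour that starts head to head. Some genes that this rule names are not reported here. The genes and lists were chosen with earlier results of these data known.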

Additional observations from a re-analysis of the deposited data

Results flagged for a closer look

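In groups of 4 libraries, 1 library stood apart from the other 3 by Dixon's criterion in 2 of 116 groups examined, where chance flags about 1 in 20. For NR1H3, control replicate 1 was at 14.57 CPM and the other controls at 16.77 to 17.06. For CETN2, the neighbour of NSDHL, control replicate 4 was at 48.99 CPM and the other controls at 39.16 to 40.84.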

How the results depend on the processing

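Over the 17 alternatives, between 7 and 10 of the 29 genes were higher and between 11 and 15 were lower. Among all tested genes, whose number changed with the filter, 3898 to 6274 were higher and 3596 to 4910 lower. Of the values for single members, 460 stayed on their side of the threshold, 22 lost the call and 11 gained it, and 0 called values changed sign. The sign of the uncalled members MVK, FDFT1, SCAP and STARD4 did change, MVK reaching 0.064 with GC offsets, FDFT1 0.076 and SCAP 0.082 with total counts, and STARD4 -0.13 with GC offsets. The median of the LXR and efflux genes ranged from 0.435 to 0.615, that of the mevalonate pathway from -0.518 to -0.345 and that of the squalene and sterol segment from -0.301 to -0.149. Among the other cholesterol genes, NUS1 was at 0.006 (not called) and lower with GC offsets (-0.135, adjusted p = 0.0371) and with GC offsets and the replicate block (-0.135, adjusted p = 0.0425). The replicate number as a block gave 10 of the 29 genes higher and 14 lower, INSIG1 being the call gained. Over all 16452 tested genes the block gave 4912 higher and 4684 lower. Correlations of same-numbered libraries (0.131, -0.088, -0.053 and 0.084) did not show pairing by number, and control replicate 2 correlated better with MARK3i replicate 1 (0.101) than with its own number. Controls 1 and 2 correlated positively with MARK3i replicates 1 and 3 (0.027 to 0.131) and negatively with replicates 2 and 4. For controls 3 and 4 the signs were the reverse (0.084 to 0.129 with MARK3i replicates 2 and 4). This pattern was not tested. The low counts of ABCA1 and ABCG1 go with standard errors of 0.204 and 0.210, against a median of 0.096 over all tested genes.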

Other observations

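The 4 control libraries formed pairs. Replicates 1 and 2 (chi-square of 1.73 per degree of freedom) and replicates 3 and 4 (1.663) were closer to each other than any pair across them (3.571 to 4.952). Controls 1 and 2 were both above or both below controls 3 and 4 for 16 of the 29 genes (55.2%), and for 51.8% of all tested genes. The 8 of the 29 genes higher in controls 1 and 2, HMGCS1, IDI1, CYP51A1, MSMO1, SC5D, INSIG1, INSIG2 and TMEM97, had a transcript GC content of 37.9% to 49.8%. The 8 lower there, MVK, PMVK, MVD, FDPS, TM7SF2, NSDHL, SCAP and NR1H2, had 51.4% to 63.4%. The 13 whose control pairs overlapped had 40.6% to 59.3%. This pattern was noticed in the data and carries no test, and the labels name no batch. Across the 29 genes, the log2 change on treatment had a Spearman rho of -0.062 with GC content (18 synthesis enzymes: -0.117), against -0.188 over 16360 tested genes. Genes share their libraries and are not independent replicates.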
